A study of Danio rerio with 12 samples.

Results

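The respiratory chain passes electrons from nutrients to oxygen across the inner mitochondrial membrane, and ATP synthase uses the proton gradient that this creates to make ATP. Complex I takes electrons from NADH and complex II from succinate, ubiquinone carries them to complex III, cytochrome c carries them on to complex IV, and ATP synthase is also called complex V. Most subunits are encoded in the nucleus, and assembly factors insert cofactors and join the subunits without staying in the finished complex. In liver, the chain serves the oxidation of fatty acids and amino acids and supplies ATP for glucose, lipid and protein synthesis.

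The transcripts described here are the nuclear genes of the chain and of ATP synthase, chosen by their current zebrafish symbols (those that begin with nduf, sdha to sdhd, uqcr, cox and a digit, or atp5, and cyc1, cycsa and cycsb). The rule used no measured value. It found 91 genes, read by 167 probes, of 6684 genes measured. The 91 genes comprised 31 of complex I, 4 of complex II, 8 of complex III, 1 cytochrome c, 17 of complex IV and 17 of ATP synthase, which makes 78 structural genes, and 5, 2 and 6 assembly factors of complexes I, II and IV. The gene ndufa4a is counted with complex I by its name although its product is a subunit of complex IV. The 17 ATP synthase genes, and so the 78 called structural, include by name atp5if1a and atp5if1b, which code for inhibitors of the enzyme. The rule names 119 protein-coding zebrafish genes, and the other 28, cycsa and sdhda among them, had no value in the table used here. None of the 13 subunits encoded in mitochondrial DNA was measured.

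Liver transcripts of adult wild-type zebrafish of the AB strain were measured on 12 two-colour microarrays after 28 days on a diet in which 25% of the feed was maize, or on the 0% maize diet, in which wheat took its place. All fish, those of the control diet included, also received Artemia nauplii. There were 4 groups of 3 pools each, namely 25% maize females, 0% maize females, 25% maize males and 0% maize males, and a pool held the livers of the fish of 1 sex from a replicate with 10 fish of each sex. Each pool was measured on 2 arrays with opposite dyes, and each array set a 25% maize pool against a 0% maize pool. Only 1 array set 2 female pools against each other, and only 1 set 2 male pools. The other 10 arrays set a pool of 1 sex against a pool of the other sex. The labels carry replicate numbers from 1 to 4, so that the 25% maize female pools are replicates 2, 3 and 4, the 0% maize female pools 1, 2 and 3, the 25% maize male pools 1, 2 and 3, and the 0% maize male pools 1, 3 and 4. A level is given in log2 units relative to the mean of the 12 pools, and a difference is log2 of the first-named group over the other, so that 1 unit means a doubling. Levels of different genes cannot be set against each other on this scale.

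The liver of zebrafish is intertwined with the pancreas, and the pools also differed in transcripts of other tissues. At an adjusted p under 0.05, 38.2% of all genes were higher and 31.9% lower in females than in males. All 15 measured ovary and oocyte genes, all 7 measured female liver genes (vitellogenins and esr1) and 1 of 14 hepatocyte genes were higher. Lower were 12 hepatocyte genes, all 12 measured genes of the exocrine pancreas and all 6 of the erythrocyte. Of 9 measured intestine genes 1 was higher and 6 lower, and of 5 measured skeletal muscle genes 0 passed. The mean level of the ovary and oocyte genes ranged between 1.31 and 1.78 in 25% maize females, between 1.11 and 2.43 in 0% maize females, between -1.92 and -1.15 in 25% maize males and between -2.03 and -1.72 in 0% maize males. Ratios were read as Cy5 over Cy3, which is likely but not given in the sources used here: all 470 values of 47 vitellogenin probes on the 10 arrays with a pool of each sex had the sign this requires. All directions below rest on it.

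Feeding 25% maize changed a single gene of the 91 when the effect was estimated independent of sex, with both sexes weighted equally. This was cycsb, a cytochrome c gene, which fell. With limma and Benjamini-Hochberg adjustment over all genes (threshold 0.05), 0 members were higher, against 2% of all genes, and 1 was lower, against 2.56% of all genes. At an unadjusted p under 0.05 there were 11 of the 91 members and 1130 of all 6684 genes. The median difference was 0.01 over the members and -0.01 over all genes. In pooled tissue, fewer cells of a type and less RNA per cell cannot be told apart.

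For cycsb, the levels were 0.26, -0.28 and -0.65 in the 25% maize female pools, against 0.34, 0.23 and 1.04 in the 0% maize female pools. In males they were -1.24, -0.17 and -0.75 in the 25% maize pools, against 0.56, 0.49 and 0.15 in the 0% maize pools. Every 25% maize male pool was therefore below every 0% maize male pool, while in females replicate 2 of the 25% maize diet lay among the 0% maize pools. Independent of sex, cycsb was 1.92-fold lower on 25% maize (log2 difference -0.94 ± 0.18 SE, 95% interval -1.34 to -0.54, adjusted p = 0.0159). All 3 cycsb probes passed the threshold singly, and the difference nearest 0 was -0.89. The difference was -0.76 ± 0.30 in females (adjusted p = 0.248) and -1.12 ± 0.30 in males (adjusted p = 0.166), and the effects in the sexes differed by 0.37 ± 0.47 (adjusted p = 0.857). The adjusted p of cycsb rose past the threshold when replicate 1 of the 0% maize females was left out (0.0759), replicate 1, 3 or 4 of the 0% maize males (0.107, 0.0605 and 0.0593), replicate 2 or 4 of the 25% maize females (0.0527 and 0.0976) or replicate 3 of the 25% maize males (0.0923), with differences that stayed between -1.04 and -0.86 in these fits.

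**Figure D1:**
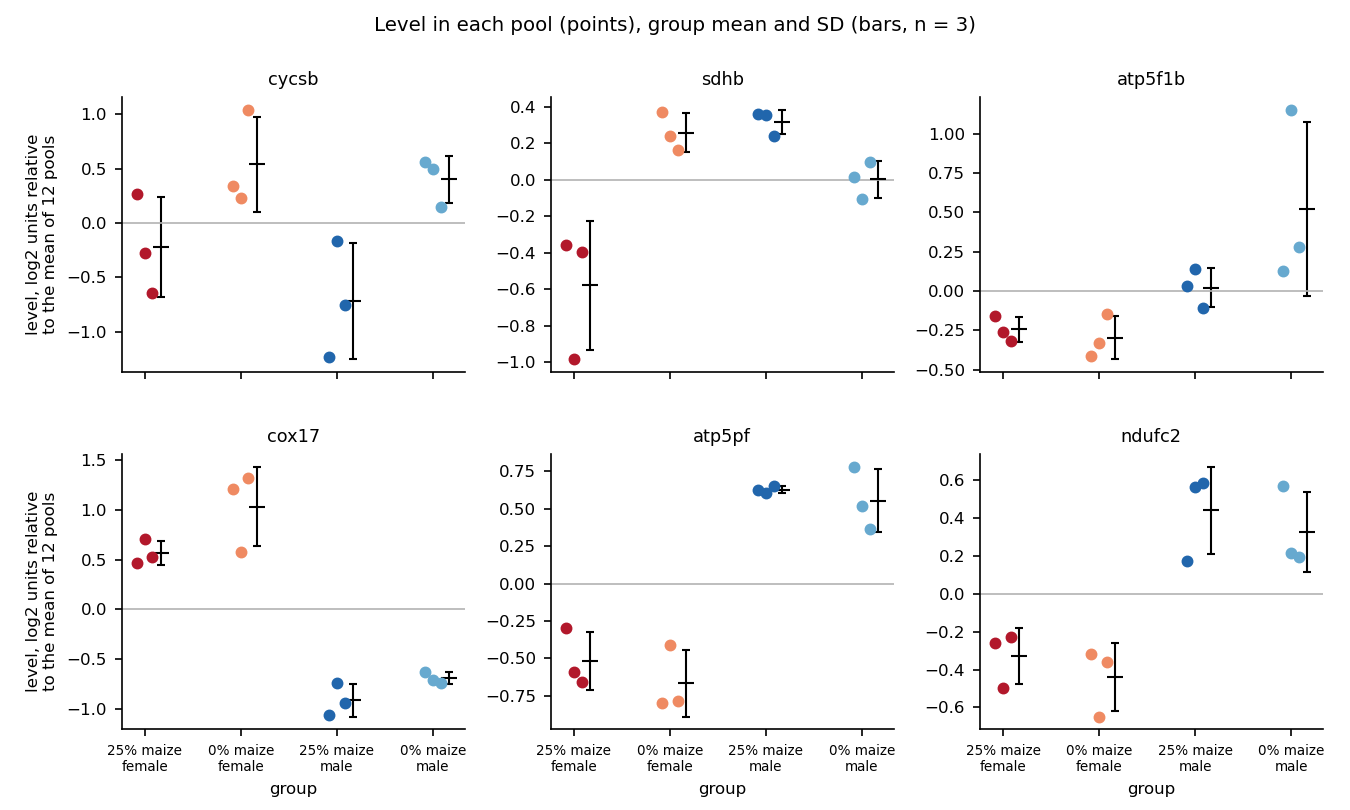
Level of cycsb, sdhb, atp5f1b, cox17, atp5pf and ndufc2 in each of the 12 pools (log2 units relative to the mean of the pools), by sex and diet, with the mean and SD of each group of 3 pools. The cycsb pools of 25% maize males lie between -1.24 and -0.17, all below the 0% maize males, sdhb falls to -0.98 in a 25% maize female pool, a 0% maize male pool stands apart for atp5f1b at 1.15, and for cox17, atp5pf and ndufc2 the female and male pools are separate.

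The next 4 members in the order of p did not pass the threshold. The ATP synthase gene atp5mea, which codes for the small membrane subunit e, stood at 0.28, 0.41 and 0.43 in the 25% maize female pools and at -0.11, -0.71 and -0.09 in the 0% maize female pools, and its difference independent of sex was 0.34 ± 0.11 (adjusted p = 0.109). Its male pools overlapped. The complex I subunit ndufb6 differed by 0.25 ± 0.08 (adjusted p = 0.126). Of the assembly factors of complex IV, cox10, which makes heme O on the way to heme A, differed by -0.33 ± 0.11 (adjusted p = 0.120), and cox17, the copper chaperone, by -0.34 ± 0.12 (adjusted p = 0.131). The levels of cox10 in males were -0.23, 0.11 and -0.26 in the 25% maize pools, all below the 0.38, 0.47 and 0.31 of the 0% maize pools.

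Within females, 1 member passed the threshold, sdhb, the iron-sulfur subunit of complex II (succinate dehydrogenase), which was lower on 25% maize. Thus 1 member was lower, against 0.359% of all genes, and 0 were higher, against 0.972% of all genes, with 14 of the 91 members and 1033 of all 6684 genes at an unadjusted p under 0.05. Its levels were -0.36, -0.98 and -0.40 in the 25% maize female pools and 0.37, 0.24 and 0.16 in the 0% maize female pools, with no overlap. In males the order was the other way, with 0.36, 0.35 and 0.24 in the 25% maize pools and 0.01, -0.10 and 0.10 in the 0% maize pools. The difference was -0.81 ± 0.17 in females (1.75-fold lower, adjusted p = 0.0423) and 0.28 ± 0.17 in males (adjusted p = 0.605), and the difference between these effects, -1.09 ± 0.26, did not pass (adjusted p = 0.209).

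The call for sdhb was not firm. Its 2 probes disagreed, with a difference in females of -1.52 ± 0.36 at one (adjusted p = 0.0822) and -0.09 ± 0.12 at the other (adjusted p = 0.804), neither past the threshold, and it was lost in 15 of 24 alternative fits, with adjusted p up to 0.994 and differences between -1.21 and -0.62. Leaving out any pool but replicate 3 of the 0% maize males or replicate 3 of the 25% maize females ended the call, and with replicate 4 of the 25% maize females or replicate 1 of the 0% maize females left out the adjusted p was 0.994 and 0.988. No other subunit of complex II passed the threshold within a sex. In females the flavoprotein subunit sdha differed by 0.06 ± 0.13, the membrane anchor sdhc by -0.26 ± 0.24 and the membrane anchor sdhdb by -0.07 ± 0.24, with adjusted p between 0.682 and 0.914. In males sdha differed by -0.25 ± 0.13, sdhc by 0.21 ± 0.24 and sdhdb by 0.14 ± 0.24, so that the estimates of sdhc and sdhdb lay on the same sides of 0 as those of sdhb.

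In males, 0 members were higher (0.015% of all genes) and 0 lower (0.015% of all genes), with 5 of the 91 members and 747 of all 6684 genes at an unadjusted p under 0.05. The effects of the diet in females and in males were set against each other by an interaction contrast, and 0 members passed it in either direction, against 0% and 0% of all genes, with 11 of the 91 members and 627 of all 6684 genes at an unadjusted p under 0.05.

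Although few single genes passed, the members of most complexes stood on opposite sides of 0 in the sexes. Within a sex, however, only 1 array of female pools and 1 of male pools compared the diets directly. An error in either array enters the effects in females and in males with opposite signs. Opposite sides in the sexes can therefore also come from such an error, which was not tested. In females, 28 of 31 complex I genes, 8 of 8 complex III genes, 13 of 17 complex IV genes and 14 of 17 ATP synthase genes had a higher estimate on 25% than on 0% maize, with medians of 0.19, 0.15, 0.11 and 0.12. In males, 22 of 31, 6 of 8, 14 of 17 and 12 of 17 of these genes had a lower estimate, with medians of -0.10, -0.20, -0.11 and -0.13. Over the 73 genes of these complexes the median was 0.15 in females, with 63 genes above 0, and -0.12 in males, with 54 below 0. The median over all genes was -0.01 in females and -0.00 in males. Of all 6684 genes, 3167 were above 0 in females and 3361 below 0 in males. Complex II had the other order, at -0.16 in females and 0.17 in males. It has only 4 genes, among them sdhb with its disagreeing probes, and sdha stood at 0.06 in females and -0.25 in males. The assembly factors of complexes I, II and IV stood at -0.01, -0.05 and -0.17 in females. In males they stood at 0.06, -0.02 and 0.09.

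The median over the 91 members of the difference between the sexes in the diet effect was 0.23, against -0.01 over all genes, and it fell to 0.12 when replicate 1 of the 0% maize females was left out. The median in males was -0.11, and it shrank to -0.03 without that same pool and to -0.03 without replicate 1 of the 25% maize males. The median in females was 0.11 and fell to 0.07 without replicate 1 of the 0% maize females.

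**Figure D2:**
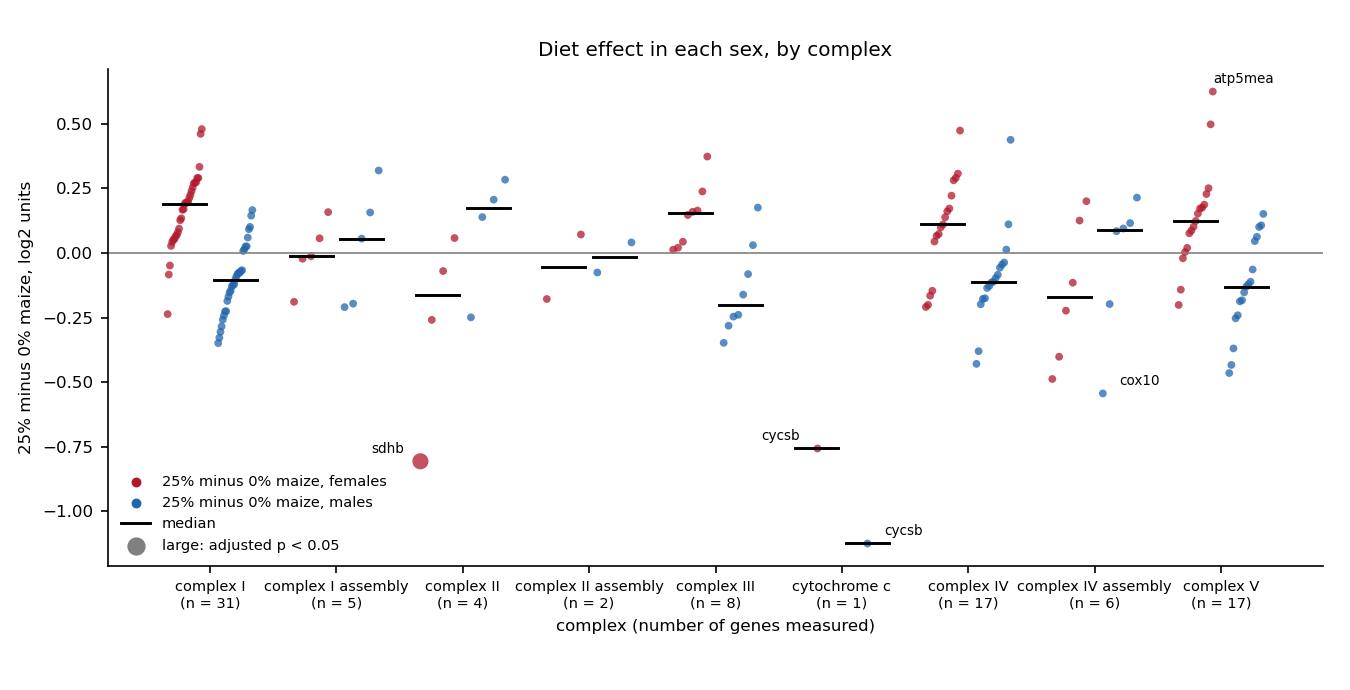
Difference between the 25% and the 0% maize diet (log2 units) for each of the 91 genes, by complex, with females left of males, a bar at the median and a large point where the adjusted p is under 0.05. The medians of complexes I, III, IV and V lie above 0 in females and below 0 in males, and sdhb in females is the only large point.

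The level of the whole module varied between pools of the same group. The median level of the 73 genes of complexes I, III, IV and V was 0.13, -0.11 and 0.08 in the 25% maize female pools, against -0.08, -0.18 and -0.05 in the 0% maize female pools. In males it was -0.14, 0.09 and -0.03 in the 25% maize pools, against 0.08, 0.04 and 0.06 in the 0% maize pools. Replicate 3 of the 25% maize females was thus low like the 0% maize females, and replicate 2 of the 25% maize males was high like the 0% maize males, so that the groups overlapped in each sex. The share of the 73 genes below their mean over the pools was 20.5%, 67.1% and 34.2% in 25% maize females, 64.4%, 79.5% and 58.9% in 0% maize females, 78.1%, 26.0% and 57.5% in 25% maize males, and 38.4%, 41.1% and 38.4% in 0% maize males. The median over all genes stayed between -0.06 and 0.06 in every pool.

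Transcripts of some other tissues also stood on opposite sides of 0 in the sexes, with no gene of these lists past the threshold for the diet within a sex. Those of the erythrocyte did not, with 4 of 6 genes above 0 in females (median 0.31) and 6 of 6 in males (median 0.41). The hepatocyte genes did, with 8 of 14 above 0 in females (median 0.09) and 12 below 0 in males (median -0.08). Their median difference between the sexes in the diet effect was 0.22. Of 5 skeletal muscle genes, 5 were above 0 in females (median 0.19) and 4 below 0 in males (median -0.27). Of 7 female liver genes, 6 were below 0 in females (median -0.48) and 4 in males (median -0.00). All 12 genes of the exocrine pancreas were above 0 in females (median 0.39) and 10 of 12 below 0 in males (median -0.28), and all 9 intestine genes were above 0 in females (median 1.29) and below 0 in males (median -0.62). The ovary and oocyte genes had the reverse order, with all 15 below 0 in females (median -0.50) and 14 above 0 in males (median 0.36). Of 13 listed intestine genes 9 were measured, and the mean level of the 9 was 0.57, -0.96 and 0.68 in the 25% maize female pools and -1.43, -1.49 and -0.72 in the 0% maize female pools. In males it was -0.56, 0.20 and 1.05 in the 25% maize pools and 0.76, 1.80 and 0.10 in the 0% maize pools. The pool of 25% maize females that was low for the module, replicate 3, was thus the lowest of its group for the intestine genes too. So were replicate 1 of the 25% maize males and replicate 2 of the 0% maize females. In 0% maize males, however, replicate 3 was the highest for the intestine genes (1.80) and the lowest for the module (0.04). In 25% maize males, replicate 3 was the highest for the intestine genes (1.05), but replicate 2 was the highest for the module (0.09). The part of these tissues in the result was not tested.

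**Figure D3:**
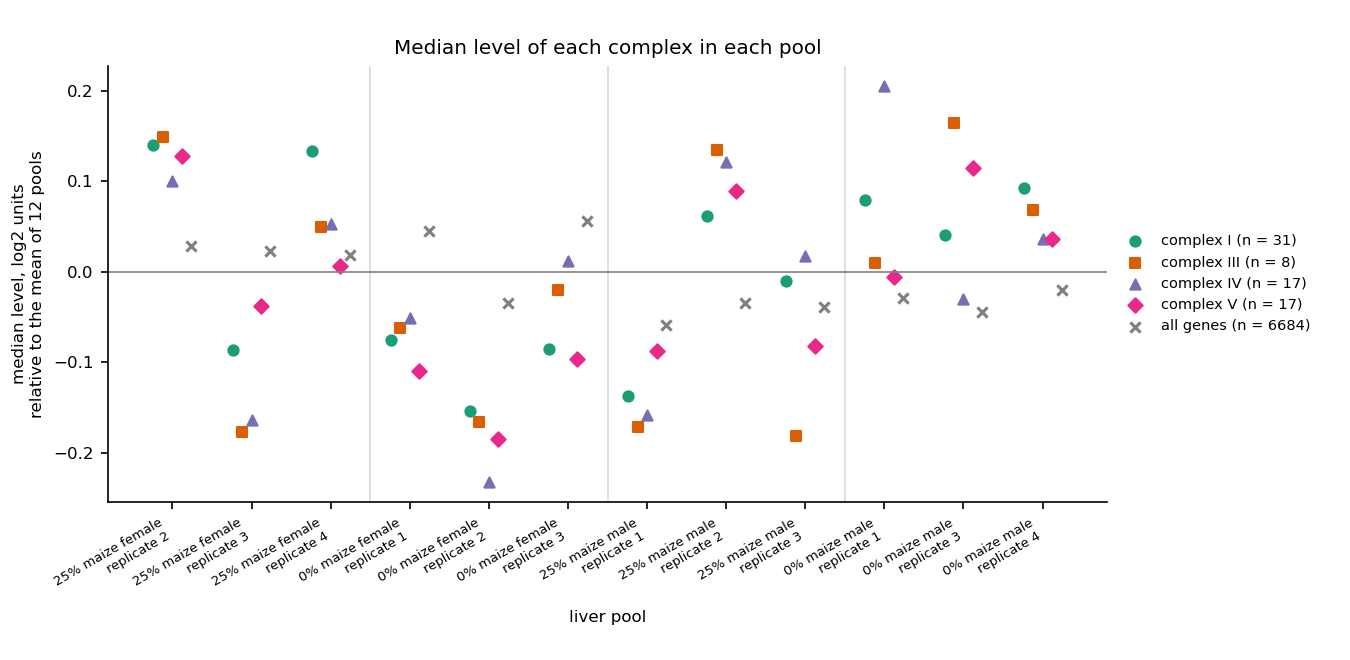
Median level (log2 units relative to the mean of the 12 pools) of the genes of complexes I, III, IV and V and of all 6684 genes in each pool. The complexes lie on the same side of 0 in most pools, with medians of all 4 below 0 in replicate 3 of the 25% maize females and replicate 1 of the 25% maize males, while all genes stay between -0.06 and 0.06.

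Counted by pools, 17 members (18.7%) had every 25% maize female pool above every 0% maize female pool, against 11.8% of all genes, and 2 (2.2%) had every one below, against 9.95% of all genes. In males, 3 (3.30%) had every 25% maize pool above, against 7.9% of all genes, and 15 (16.5%) every one below, against 10.6% of all genes. The 17 comprised 9 complex I genes (ndufa2, ndufa5, ndufa6, ndufa13, ndufb2, ndufb5, ndufb6, ndufb8 and ndufv2), uqcrc1 and uqcrq of complex III, cox5ba, cox6a2 and cox6b2 of complex IV with its assembly factor cox19, and atp5mea and atp5mj of ATP synthase. In both sexes, 0 members were separated in the same direction, against 215 of all 6684 genes. Another 5 (5.49%) were separated in opposite directions, against 2.39% of all genes. The limit of 1 array of 2 female pools and 1 of 2 male pools holds for these levels too.

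Of these 5, 4 were higher in the 25% maize females and lower in the 25% maize males than on 0% maize. They were ndufa2, ndufb8 and ndufv2 of complex I, the last a subunit of the arm that takes electrons from NADH, and uqcrq, a small subunit of complex III. The fifth was sdhb, in the reverse direction. For uqcrq the levels were 0.12, -0.18 and 0.10 in the 25% maize female pools and -0.20, -0.55 and -0.35 in the 0% maize female pools. They were -0.02, 0.10 and 0.08 in the 25% maize male pools and 0.33, 0.15 and 0.42 in the 0% maize male pools. The pools of the 0% maize diet thus held both the highest and the lowest levels of uqcrq, and the 25% maize pools of both sexes lay between them. The difference between the effects in the sexes was 0.62 ± 0.21 (adjusted p = 0.382), and it pointed the same way at all 3 probes, with 0.49 to 0.75.

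For ndufb8 the 25% maize females stood at -0.06, -0.06 and 0.02 and the 0% maize females at -0.31, -0.35 and -0.29. The 25% maize males stood at 0.05, 0.06 and 0.01 and the 0% maize males at 0.13, 0.41 and 0.38. As for uqcrq, the sexes were further apart on 0% than on 25% maize, with a difference between the diet effects of 0.53 ± 0.16 (adjusted p = 0.270).

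Further genes, chosen after their values were seen, had estimates in females close to the threshold. The closest was atp5mj, a small membrane subunit of ATP synthase, at 0.17, 0.28 and 0.19 in the 25% maize female pools and -0.26, -0.44 and -0.19 in the 0% maize female pools. Its difference was 0.50 ± 0.11 in females (adjusted p = 0.0564) and -0.13 ± 0.11 in males (adjusted p = 0.767). The complex I subunit ndufa5 differed by 0.46 ± 0.13 in females (adjusted p = 0.118) and by -0.35 ± 0.13 in males (adjusted p = 0.346). At the other end, ndufb9 of complex I, read by 1 probe, had the largest spread within groups, an SD of 0.896 against a median of 0.173 over the members and 0.187 over all genes, and its levels in 25% maize females alone were -1.45, 0.12 and 0.77.

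More of these genes differed between the sexes than between the diets. Between females and males, 17 members were higher in females, against 38.2% of all genes, and 20 were lower, against 31.9% of all genes. The 37 genes were 40.7% of the members, where 70.0% of all genes passed. The median size of the sex difference was 0.17 over the members and 0.41 over all genes, and the median difference was -0.05 against 0.05. The structural genes held 11 higher and 20 lower genes of 78, with the inhibitor atp5if1a counted among the higher. The assembly factors held 6 higher and 0 lower of 13. By complex, 2 genes were higher and 8 lower of complex I, 1 and 2 of complex II, 1 and 2 of complex III, 4 and 4 of complex IV, and 3 and 4 of ATP synthase. No gene differed between the sexes in cytochrome c, where cycsb gave 0.37 ± 0.19 (adjusted p = 0.0928).

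**Figure D4:**
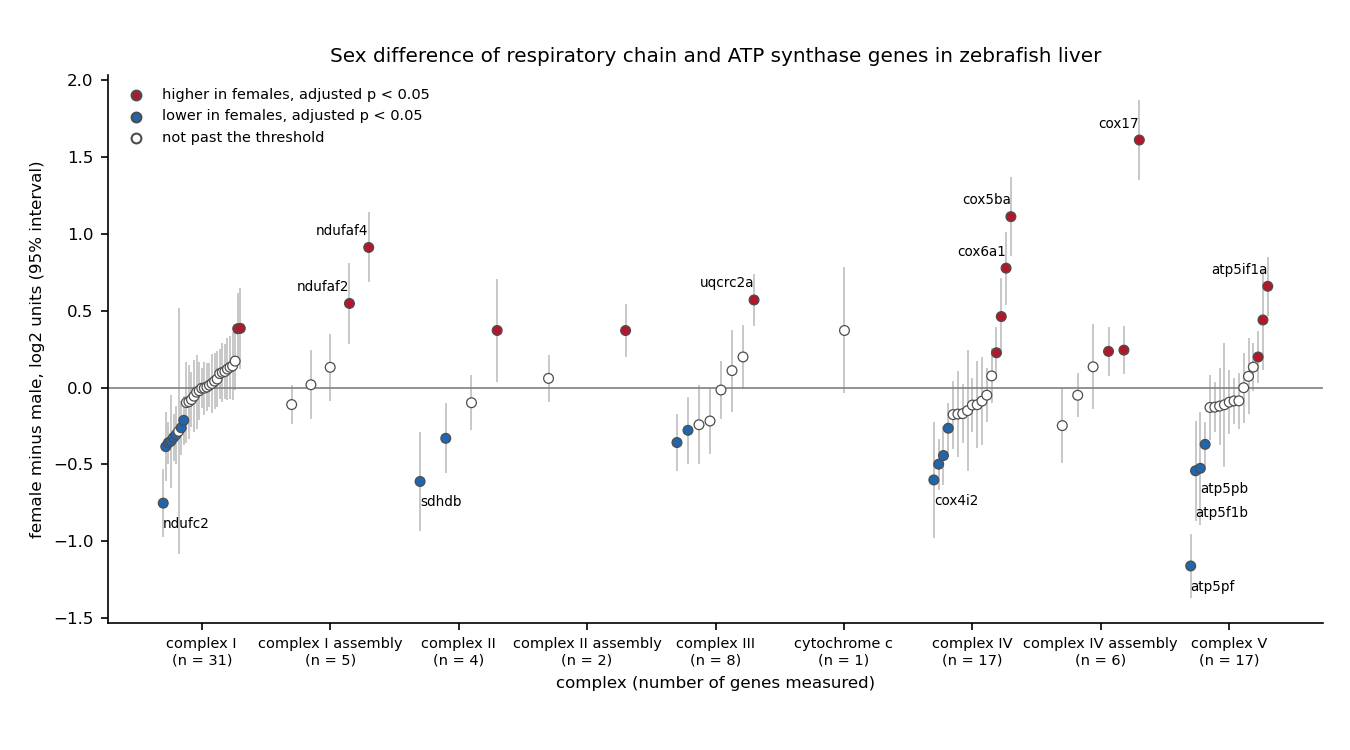
Female minus male difference (log2 units, with its 95% interval) of each of the 91 genes, by complex, with filled points where the adjusted p is under 0.05. The filled points of the assembly factors all lie above 0, up to 1.61 for cox17, and the lowest point is atp5pf at -1.16.

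The largest difference between the sexes was that of cox17, which delivers copper to complex IV. It stood at 0.47, 0.71 and 0.53 in the 25% maize female pools and 1.21, 0.58 and 1.32 in the 0% maize female pools, against -1.06, -0.74 and -0.94 in the 25% maize male pools and -0.62, -0.71 and -0.74 in the 0% maize male pools. Every female pool was above every male pool. It was 3.05-fold higher in females (1.61 ± 0.12, adjusted p = 1.05e-06), and all 4 probes passed, with differences from 1.1 to 1.98.

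Other assembly factors were higher in females too. With cox17, 6 of 13 passed (46.2%, against 38.2% of all genes). In the other direction, cox10 did not pass, but it passed as lower in females in some alternative fits. Those without a dye term and with array weights were among them. The complex I factor ndufaf4 stood at 0.43, 0.58 and 0.47 in 25% maize females and 0.66, 0.03 and 0.57 in 0% maize females, against -0.61, -0.55 and -0.55 in 25% maize males and -0.25, -0.52 and -0.25 in 0% maize males, so that the sexes did not overlap. It was 1.88-fold higher in females (0.91 ± 0.10, adjusted p = 2.23e-05). The complex I factor ndufaf2 was 1.46-fold higher (0.55 ± 0.12, adjusted p = 0.00168), and sdhaf3, which serves the iron-sulfur subunit of complex II, was 1.29-fold higher (0.37 ± 0.08, adjusted p = 0.00136). The other factors past the threshold were cox15, which makes heme A, and cox20, both at 0.24. All these factors except cox17 were read by 1 probe each. The call of cox20 was lost without replicate 4 of the 25% maize females, replicate 1 of the 25% maize males, or replicate 3 or 4 of the 0% maize males (adjusted p 0.0517 to 0.0711).

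Members with every female pool above every male pool numbered 5 (5.49%, against 22.2% of all genes), and besides cox17 and ndufaf4 they were cox5ba of complex IV, uqcrc2a, a core protein of complex III, and atp5if1a, the inhibitor that blocks ATP hydrolysis by ATP synthase. The levels of cox5ba were 0.67, 0.73 and 0.78 in 25% maize females and 0.60, 0.03 and 0.53 in 0% maize females, against -0.93, -0.58 and -0.41 in 25% maize males and -0.66, -0.29 and -0.46 in 0% maize males. It was 2.16-fold higher in females (1.11 ± 0.12, adjusted p = 1.29e-05), by its 1 probe. The gene uqcrc2a was 1.48-fold higher (0.57 ± 0.08, adjusted p = 6.48e-05). The inhibitor atp5if1a was 1.58-fold higher (0.66 ± 0.09, adjusted p = 6.55e-05), although 1 of its 3 probes gave -0.03, and its paralog atp5if1b gave -0.09 ± 0.09 (adjusted p = 0.383).

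For cox17, cox5ba, ndufaf4 and atp5if1a, replicate 2 was the lowest of the 0% maize female pools. For uqcrc2a it was the highest of them, at 0.42 against 0.18 and 0.06. Replicate 2 of the 0% maize females was the lowest of the 6 female pools for the ovary and oocyte genes. It stood at 1.11, against 2.40 and 2.43 in the other 0% maize female pools. The part of ovary tissue in these differences was not tested.

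Members with every female pool below every male pool numbered 10 (11%, against 16.4% of all genes). The lowest of them relative to males was atp5pf, a subunit of the peripheral stalk that holds the catalytic head of ATP synthase in place. It stood at -0.30, -0.59 and -0.66 in 25% maize females and -0.80, -0.41 and -0.79 in 0% maize females, against 0.63, 0.60 and 0.65 in 25% maize males and 0.78, 0.52 and 0.36 in 0% maize males. It was 2.23-fold lower in females (-1.16 ± 0.09, adjusted p = 1.96e-06), by its 1 probe. The complex I subunit ndufc2, read by 1 probe, had levels between -0.65 and -0.23 in the 6 female pools. It was 1.68-fold lower in females (-0.75 ± 0.10, adjusted p = 6.58e-05). The complex II membrane anchor sdhdb was 1.53-fold lower (-0.61 ± 0.15, adjusted p = 0.00334). The other anchor, sdhc, read by 1 probe, was 1.29-fold higher (0.37 ± 0.15, adjusted p = 0.0471). The call of sdhc was lost in 12 of 24 alternative fits, 8 of which left out a pool (adjusted p up to 0.232).

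The lower ATP synthase genes included atp5f1b, the catalytic beta subunit, and atp5pb, subunit b of the peripheral stalk. The levels of atp5f1b were -0.16, -0.26 and -0.32 in 25% maize females and -0.42, -0.33 and -0.15 in 0% maize females, against 0.03, 0.14 and -0.11 in 25% maize males and 0.13, 1.15 and 0.28 in 0% maize males. Replicate 3 of the 0% maize males, at 1.15, stood far above the other pools. The same pool was at 1.18 for atp5pb, 1.07 for atp5f1c, the central stalk subunit gamma, and 0.67 for atp5fa1, the alpha subunit of the head, and it was the highest of the 12 pools for each of them.

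The sex difference of atp5f1b was -0.54 ± 0.15 (adjusted p = 0.00666) and was -0.38 without that pool (adjusted p = 0.00380), and that of atp5pb was -0.53 ± 0.17 (adjusted p = 0.0152) and -0.34 without it (adjusted p = 0.00926). Without it, the lower calls of ndufv1 of complex I (-0.35, adjusted p = 0.0400) and of uqcrc1 of complex III (-0.28, adjusted p = 0.0262) were lost, with adjusted p of 0.0951 and 0.103, and this was 1 of 6 pools whose omission ended each of these calls (adjusted p up to 0.119). In this pool the mean level of 5 skeletal muscle genes was 0.70, against -0.12 and 0.00 in the other 0% maize male pools, that of the intestine genes 1.80, against 0.76 and 0.10, that of the erythrocyte genes 1.36, against 0.00 and 0.92, and that of the exocrine pancreas genes 0.22, against 0.96 and 1.25. The part of these tissues in the result was not tested.

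Complex IV held genes that differed between the sexes in opposite directions, including paralogs. Of the subunit 6a genes, cox6a1, in mammals the form of most tissues, was 1.71-fold higher in females (0.78 ± 0.11, adjusted p = 8.50e-05), and cox6a2, in mammals the form of heart and muscle, was 1.41-fold lower (-0.50 ± 0.08, adjusted p = 0.000154). Of the subunit 5b genes, cox5ba was higher, as given above, and cox5b2 was 1.36-fold lower (-0.44 ± 0.09, adjusted p = 0.000991) with all 4 probes past the threshold. Of the subunit 4 genes, both were lower, cox4i1 by -0.26 ± 0.07 (adjusted p = 0.00731) and cox4i2, in mammals the form raised by low oxygen, by -0.60 ± 0.17 (adjusted p = 0.00882). For cox4i2, replicate 3 of the 25% maize males stood at 1.28, against 0.20 and 0.06 in the other 25% maize male pools. Its call was kept with each pool left out in turn but lost when arrays were scaled to one spread (adjusted p = 0.0550). Of the subunit 7a genes, cox7a2a, read by 1 probe, was 1.38-fold higher (0.46 ± 0.11, adjusted p = 0.00368). For cox7a1, in mammals the form of heart and muscle, the difference was -0.17 ± 0.13 (adjusted p = 0.244).

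The acyl carrier proteins of complex I were split in the same way. The paralog ndufab1b was higher in females (0.39 ± 0.12, adjusted p = 0.0135) and ndufab1a was lower (-0.26 ± 0.08, adjusted p = 0.0120), each by 1 probe and each with overlapping pools. The call of ndufab1b was lost without replicate 3 of the 0% maize females (adjusted p = 0.0512), replicate 1 of the 25% maize males (0.0617) or replicate 4 of the 0% maize males (0.0698), as it was under the replicate block, and that of ndufab1a without replicate 3 of the 0% maize males (0.0511). The levels of cox6a2 were -0.05, -0.23 and 0.00 in 25% maize females and -0.42, -0.52 and -0.30 in 0% maize females, against 0.02, 0.15 and 0.38 in 25% maize males and 0.28, 0.37 and 0.32 in 0% maize males. Those of cox6a1 were 0.44, 0.52 and 0.51 in 25% maize females and 0.31, -0.04 and 0.58 in 0% maize females, against -0.82, -0.49 and -0.54 in 25% maize males and -0.33, 0.06 and -0.19 in 0% maize males. The sexes were separate for cox6a2, and for cox6a1 a 0% maize female pool and a 0% maize male pool overlapped. Whether a probe also binds the transcript of the paralog was not tested.

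**Figure D5:**
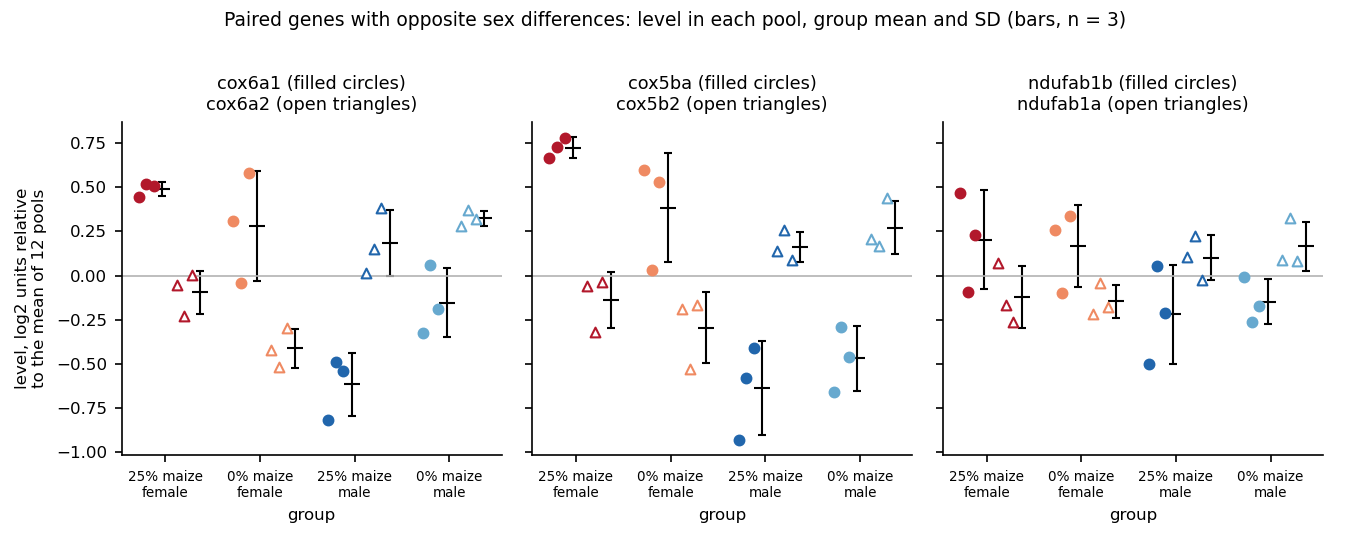
Levels (log2 units relative to the mean of the 12 pools) of cox6a1 and cox6a2, cox5ba and cox5b2, and ndufab1b and ndufab1a in each pool, by sex and diet, with the mean and SD of the 3 pools of a group. In each pair the gene shown as filled circles is higher in females than in males, and the gene shown as open triangles is lower.

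Genes that serve the chain but lie outside the rule were read from further lists. Of 27 measured assembly factors outside the rule (45 listed), 0 were higher and 3 lower on 25% maize independent of sex, beside the 2% and 2.56% of all genes. The 3 were lyrm7, a factor of complex III, at -0.54 ± 0.10 (adjusted p = 0.0158), coa7, a factor of complex IV, at -0.40 ± 0.09 (adjusted p = 0.0281), and hccsa.1, the enzyme that attaches heme to cytochrome c, at -0.31 ± 0.07 (adjusted p = 0.0257). The diet effect on hccsa.1 was -0.57 ± 0.11 in females (adjusted p = 0.0395) and -0.05 ± 0.11 in males, and their difference of -0.52 ± 0.18 did not pass the threshold (adjusted p = 0.382). In females relative to males, 10 of the 27 were higher and 4 lower, beside the 38.2% and 31.9% of all genes, among them hccsa.1 at 0.71 ± 0.07 and tmem70, a factor of ATP synthase, at 1.12 ± 0.13.

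The calls in the next lists stand beside 2% of all genes higher and 2.56% lower independent of sex, and 0.972% higher in females. The lists are small, so that 1 call is a large share of a list. Of 5 measured genes of ubiquinone synthesis (14 listed), 1 was higher on 25% maize and 1 lower. The higher was coq8aa, a regulator of the pathway (0.57 ± 0.08, adjusted p = 0.00514). The lower was pdss1, which starts the side chain (-0.53 ± 0.09, adjusted p = 0.00926). Of 8 measured regulators of mitochondrial transcription (19 listed), 0 were higher and 2 lower, namely the coactivator pprc1 at -0.49 ± 0.11 and the mitochondrial transcription factor tfb2m at -0.57 ± 0.13 (adjusted p = 0.0296 for each). Of 14 measured genes of electron entry and energy transfer (23 listed), 1 was higher and 0 lower, etfdh, which passes electrons from fatty acid oxidation to ubiquinone, at 0.45 ± 0.10 (adjusted p = 0.0339), and at 1.06 ± 0.17 in females (adjusted p = 0.0199). In males etfdh gave -0.17 ± 0.17 (adjusted p = 0.815), and the difference between the sexes was 1.24 ± 0.27 (adjusted p = 0.191). Of 19 measured genes of the citric acid cycle and pyruvate dehydrogenase (31 listed), 0 changed independent of sex, and suclg2, a subunit of succinyl-CoA ligase, was higher on 25% maize in females (0.74 ± 0.15, adjusted p = 0.0423). Of these 19 genes 15 were above 0 in females (median 0.11) and 15 below 0 in males (median -0.17), and the median difference between the sexes in the diet effect was 0.25.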

How the data were processed

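Liver RNA of 12 pools was hybridised to 12 two-colour Agilent arrays in a closed loop. Per the submitters' processing notes and the methods, the authors read the spots with GenePix Pro and used limma. They deposited 1 log ratio of the dyes for every probe of an array. The deposited values are read here as log2, after limma's convention. Not given in the sources used here were the log base, which dye is on top, the version of limma, the filter on probes, the normalization and the correction for background.

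Of 12275 probes, the platform annotation gave 1 gene symbol for 10307, none for 1968 and several for 0. Symbols were updated through RefSeq's GRCz12tu gene table, by accession (9007 probes), current symbol (976) or synonym (317), and 7 were kept. This renamed 32 of the 91 members. Probes of a gene were averaged. Ratios were fitted with limma 3.58.1 (lmFit and eBayes) in R 4.3.3, with a term per group of sex and diet, a dye term and pools as a random effect, by whitening ratios and design. The variance of pools was 3.59 times the array error (restricted maximum likelihood over 6684 genes), and that of tanks about 0. P-values are two-sided, adjusted by Benjamini-Hochberg over 6684 genes, with a threshold of 0.05. Levels of pools were solved from the loop. The fit was run on simulated data with normal errors and no tank variance, scored only for the diet effect independent of sex. The outcome is not given here. The number of arrays limits the precision, with a median SE over the members of 0.09 independent of sex and 0.15 within a sex. Pools are separate replicates of fish, and males and females of a diet with the same number shared a tank.

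The members, the lists and the tests were chosen with earlier results of these data known. The naming rule covered members past the threshold (up to the 12 with the largest change in each contrast) and listed paralogs. It also covered in each complex the gene with the smallest p for diet and for sex, the ATP synthase inhibitors, and up to 2 genes of each other list. Not all of these are described above. Among those left out, cox5ab (0.23, adjusted p = 0.0216) and atp5mc1 (0.44, adjusted p = 0.0196) were higher in females by limma. Their calls were lost in 5 and 9 of 24 alternatives. Members named beyond the rule, for pools that did not overlap, a pool that stood apart, a place in complex II or a paralog, were chosen after their values were seen. Alternatives concerned pools, tanks, the replicate number, the dye term, the centring, scaling and weights of arrays, the prior, the way probes were combined and the threshold, and each pool was left out in turn. Figures were drawn with matplotlib 3.10.9.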

Additional observations from a re-analysis of the deposited data

Results flagged for a closer look

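For 5 genes every 25% maize pool lay on one side of every 0% maize pool in females and on the other side in males. The difference between the diet effect in females and that in males was 0.44 for ndufa2 (adjusted p = 0.382), 0.53 for ndufb8 (adjusted p = 0.270), 0.48 for ndufv2 (adjusted p = 0.445), 0.62 for uqcrq (adjusted p = 0.382) and -1.09 for sdhb (adjusted p = 0.209), and none passed the threshold by limma. The 4 genes other than sdhb were higher on 25% maize in females and lower in males. These levels come from a loop with only 1 array of 2 female pools and 1 of 2 male pools. An error in either array shifts the diet effects of the sexes in opposite directions. Single pools were not tested for standing apart from the other 2 of their group.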

How the results depend on the processing

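With arrays treated as independent, 6 members were higher and 4 lower on 25% maize independent of sex (516 and 629 of all genes), and 0 were lower in females (7 of all genes). Without a dye term there were 2 higher and 2 lower (262 and 340 of all genes), and 0 lower in females (5 of all genes). Array weights gave 2 lower (393 of all genes), and 0 lower in females (25 of all genes). With pools as the only error 1 member was higher in females (103 of all genes), as at a threshold of 0.1 (152 of all genes), and with 1 value per probe 0 were lower in females (16 of all probes). Scaling arrays to one spread multiplies up the arrays of 2 female or 2 male pools. In that fit, 0 members were lower independent of sex, where 0 of all genes passed in either direction. In females 9 members were higher (420 of all genes). In males 3 were higher and 16 lower (829 and 778 of all genes). The difference between the sexes in the diet effect was higher for 18 members and lower for 3 (848 and 835 of all genes). The medians were 0.21 in females and 0.42 for that difference. With the replicate block, 2 members were lower independent of sex, cox10 and cycsb (91 of all genes), and 0 were lower in females (1 of all genes). Deviations of pools with the same number correlated at 0.21 and 0.27 in females and -0.12 and 0.18 in males. No correlation was computed for pools with different numbers, so these values cannot decide whether the numbers are pairs. The fit used for the results above did not take them as pairs.

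Leaving out 1 pool gave 0 to 2 higher and 0 to 4 lower members independent of sex (36 to 537 and 26 to 661 of all genes). Within females it gave 0 to 1 higher and 0 to 2 lower (0 to 233 and 0 to 107 of all genes). Within males it gave 0 to 1 lower, and 0 to 1 had a lower difference between the sexes in the diet effect (median 0.12 to 0.28). Relative to males, 10 to 22 members were higher and 17 to 23 lower in females. With all pools kept, 1 of all genes was lower in males and 0 had a lower difference between the sexes in the diet effect. With all pools kept, 17 members and 2551 of all genes were higher in females relative to males, and 20 members and 2129 of all genes lower. These counts of all genes with all pools kept are not those of the fits that left out a pool. Of the 37 sex differences, 24 (10 higher, 14 lower) passed in all 24 alternatives. How many of all genes did so was not counted. The 35 genes of the naming rule had 22 calls over the contrasts with all pools kept, and 16 of these passed in all 24 alternatives. The rule picks large changes and small p-values from these same data, so this count favours calls that hold. At the threshold of 0.1, which is among the alternatives, no call can be lost. The estimates behind the 22 calls kept their side of 0 in every alternative, also where a call was lost. For genes without a call, and for the medians of the members, a reversal was not tested. The counts of members moved between fits, as given above. With 3 pools a group, small changes of single genes can be missed.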
